A study of Mus musculus with 4 samples.

Results

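Gse1, Camta1, Nav2, Agap1, Asic2, Pde4d, Shank2, Tacc1, Myo18a and Wnt5b were examined as genes with many or densely placed peaks of CTCF inside them, in cultured mouse cortical neurons. These are 10 of the 21774 protein-coding genes on the assembled chromosomes, taken from RefSeq bounds on GRCm38.p6, and they had been picked earlier from this same peak list for their number or density of peaks. Their counts and densities are therefore a description, with no test. The neurons were wild type, from embryonic day 16 Swiss-Webster cortex, kept 13 days in culture and untreated, with 2 immunoprecipitations of CTCF (biological replicates per the labels) and 2 inputs. The deposited result is a joint list of 33820 peaks that were matched between the replicates, with an IDR (irreproducible discovery rate) up to 0.05. Read depth per library is unknown from this list, and it holds no expression values, so the cell type label could not be checked against markers. A peak was assigned to a gene when its summit lay inside the gene or within 1 kb of an end. By this rule the 10 genes held 174 peaks, 0.515% of those on the chromosomes, and no peak was counted for more than 1 of them.

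CTCF, a DNA-binding protein with many zinc fingers, recognises a long GC-rich motif and halts loop extrusion by cohesin, so that its sites often anchor chromatin loops and mark the borders of contact domains. Sites inside gene bodies are common, and some sit beside internal promoters, from which shorter transcripts start. In neurons CTCF is known for its part in promoter choice in the protocadherin clusters. The 10 genes share no pathway. Shank2 encodes a scaffold of the postsynaptic density, Asic2 an acid-sensing ion channel, Pde4d a cyclic AMP phosphodiesterase and Wnt5b a secreted Wnt ligand. Camta1 encodes a calmodulin-binding transcription activator and Gse1 a coiled-coil protein found with chromatin-modifying complexes. Nav2 (a neuron navigator), Tacc1 (a coiled-coil protein of microtubules and centrosomes), Agap1 (a GTPase-activating protein for Arf in endosomal traffic) and Myo18a (an unconventional myosin) act in the cytoskeleton and membrane traffic.

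Annotated transcription starts were the first landmark inside these genes. RefSeq start windows of GRCm38.p6, each running from 250 bases before to 50 bases after a start, were present for 8 of the 10 genes, 15 windows in all, with Shank2 and Tacc1 unmatched. A summit lay within 1 kb of 10 of the 15 starts. The same held for 25.6% of 21263 windows of protein-coding genes, and for 36.7% of windows of genes of 100 kb or more. Genes rich in peaks have more summits near any point inside them, so nothing is read from this difference. Of the 10 starts, 6 were internal, from 77.6 to 815 kb downstream of the outer end of the gene: 2 in Gse1, 2 in Wnt5b and 1 each in Nav2 and Asic2. Peaks covered all or part of 10 windows, but in 0 of the 15 did the summit itself fall inside the window. The windows of these 6 internal starts are shown because a summit lay within 1 kb of each. They run 5′ to 3′ on the strand of the gene, with CCCTC, the letters that gave CTCF its name, or the reverse complement GAGGG in capitals; the window of Nav2 holds neither.
Asic2, chr11:81152854-81153153, minus strand: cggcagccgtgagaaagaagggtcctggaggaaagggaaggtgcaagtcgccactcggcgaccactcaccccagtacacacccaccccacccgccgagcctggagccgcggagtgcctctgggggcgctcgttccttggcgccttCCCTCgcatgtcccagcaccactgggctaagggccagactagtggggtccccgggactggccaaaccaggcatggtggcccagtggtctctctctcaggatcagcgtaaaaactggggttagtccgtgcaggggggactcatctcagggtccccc
Nav2, chr7:49245939-49246238, plus strand: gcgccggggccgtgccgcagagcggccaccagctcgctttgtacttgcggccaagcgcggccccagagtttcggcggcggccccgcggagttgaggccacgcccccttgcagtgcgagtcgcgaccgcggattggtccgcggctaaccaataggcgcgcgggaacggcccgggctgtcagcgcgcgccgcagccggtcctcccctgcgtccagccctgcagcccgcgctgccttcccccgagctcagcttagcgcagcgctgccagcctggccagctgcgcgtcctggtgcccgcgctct
Gse1, chr8:120488616-120488915, plus strand: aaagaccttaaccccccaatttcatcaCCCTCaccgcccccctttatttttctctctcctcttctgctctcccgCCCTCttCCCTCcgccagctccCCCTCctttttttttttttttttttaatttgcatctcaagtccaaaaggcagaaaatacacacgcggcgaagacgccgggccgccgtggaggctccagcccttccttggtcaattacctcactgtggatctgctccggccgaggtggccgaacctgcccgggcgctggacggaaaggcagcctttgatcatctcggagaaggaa
Gse1, chr8:120535607-120535906, plus strand: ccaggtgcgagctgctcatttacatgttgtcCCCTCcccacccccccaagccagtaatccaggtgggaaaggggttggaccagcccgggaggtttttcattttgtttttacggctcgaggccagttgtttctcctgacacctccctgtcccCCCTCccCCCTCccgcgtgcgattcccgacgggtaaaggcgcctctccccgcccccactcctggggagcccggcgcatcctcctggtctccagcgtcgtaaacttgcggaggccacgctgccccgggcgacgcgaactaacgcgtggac
Wnt5b, chr6:119467162-119467461, minus strand: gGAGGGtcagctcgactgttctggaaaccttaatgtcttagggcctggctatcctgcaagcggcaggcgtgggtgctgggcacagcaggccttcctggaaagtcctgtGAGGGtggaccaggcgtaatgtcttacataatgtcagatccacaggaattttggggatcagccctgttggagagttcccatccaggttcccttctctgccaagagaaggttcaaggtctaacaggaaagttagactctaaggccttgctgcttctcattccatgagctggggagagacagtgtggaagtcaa
Wnt5b, chr6:119449337-119449636, minus strand: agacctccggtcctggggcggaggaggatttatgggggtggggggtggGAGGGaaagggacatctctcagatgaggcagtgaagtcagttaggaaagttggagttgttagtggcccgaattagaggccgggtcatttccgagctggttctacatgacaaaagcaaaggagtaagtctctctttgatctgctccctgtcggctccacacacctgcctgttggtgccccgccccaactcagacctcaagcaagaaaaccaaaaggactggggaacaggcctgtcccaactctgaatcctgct

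The Asic2 start lay 815 kb inside the gene from its outer start, and a peak of strength 976 had its summit 241 bp downstream of it. Strength here is a value deposited by the authors, each replicate's −log10 p added to the other's, and it also depends on library depth. This was the strongest peak of Asic2, at 486 in the first of the replicate columns and 490 in the other. At Gse1 the first of the printed starts had a summit 396 bp downstream (strength 140) and the other a summit 654 bp upstream (strength 644). At Wnt5b the first of the printed starts had a summit 598 bp upstream (strength 45.3), and the other had the closest summit of all 15, 108 bp downstream, at a strength of 90.1. The summit at Nav2 lay 118 bp downstream (strength 51.6). The 5 letters or their reverse complement occurred in 12 of the 15 windows, from 1 to 4 times, and in 69.6% of all windows of protein-coding genes. AGNNGGC, a stretch of the core of the CTCF motif that can overlap GAGGG, was searched on both strands and matched 10 of the 15 windows, against 63.9% of all windows, and among the 6 printed windows it matched that of Nav2 and the first of Gse1 and of Wnt5b. These 7 letters are short and common in start windows, so the matches are a description of letters and not sites. No genome sequence was used here, so the letters under the summits themselves were not read.

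The genes differed widely in how full they were. Gse1 (chr8:120228501-120581383) held 28 peaks, the most of any protein-coding gene, and Camta1 (chr4:151059523-151861768) 27. Nav2 (chr7:48959063-49610090), Agap1 (chr1:89454811-89895282) and Shank2 (chr7:143978077-144426043) held 19 each, Asic2 (chr11:80880163-81968396) 18 and Pde4d (chr13:108654177-109955969) 17. Tacc1 (chr8:25154552-25256424), Myo18a (chr11:77763240-77865988) and Wnt5b (chr6:119432531-119544824) held 9 each in bounds of 101873, 102749 and 112294 bp. Among the 2427 protein-coding genes of 100 kb or more, 4.78% held at least 9 peaks and the median was 3.

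Counted per length, the order changed. Inside the gene bounds Tacc1 had 8.83 summits per 100 kb, Wnt5b 8.01, Gse1 7.93 and Myo18a 7.79, which is 6.13 to 6.95 times the 1.27 per 100 kb of the whole list. Agap1 (4.09), Shank2 (4.02), Camta1 (3.37) and Nav2 (2.92) were intermediate. Asic2 stood at 1.56 and Pde4d at 1.31, which is 1.23 and 1.03 times the whole list. The word packed thus does not describe Pde4d: its density, with 1 kb beyond each end, was at the 52.0 percentile of genes of 100 kb or more, and that of Asic2 at the 63.0 percentile. Pde4d was the longest of the 10, at 1301793 bp. All 10 genes lay above the density of the list, as did 49.0% of the long genes. Near the edge of the choice, Kalrn also had 18 peaks without being chosen, as had 3 predicted genes that span the protocadherin cluster (24 to 27). Just below were Lsamp and Rbfox3 with 16 and Cdh13 with 15. The edge by density was read with 1 kb beyond each end, by which Tacc1 had 8.66 per 100 kb, Myo18a 8.59, Gse1 7.89 and Wnt5b 7.87. By this measure 2900026A02Rik (8.76 per 100 kb) and Atp9a (8.19) were not chosen. Mapt (6.69), Kifc3 (6.67) and Cyfip2 (6.61) came just below.

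**Figure D1:**
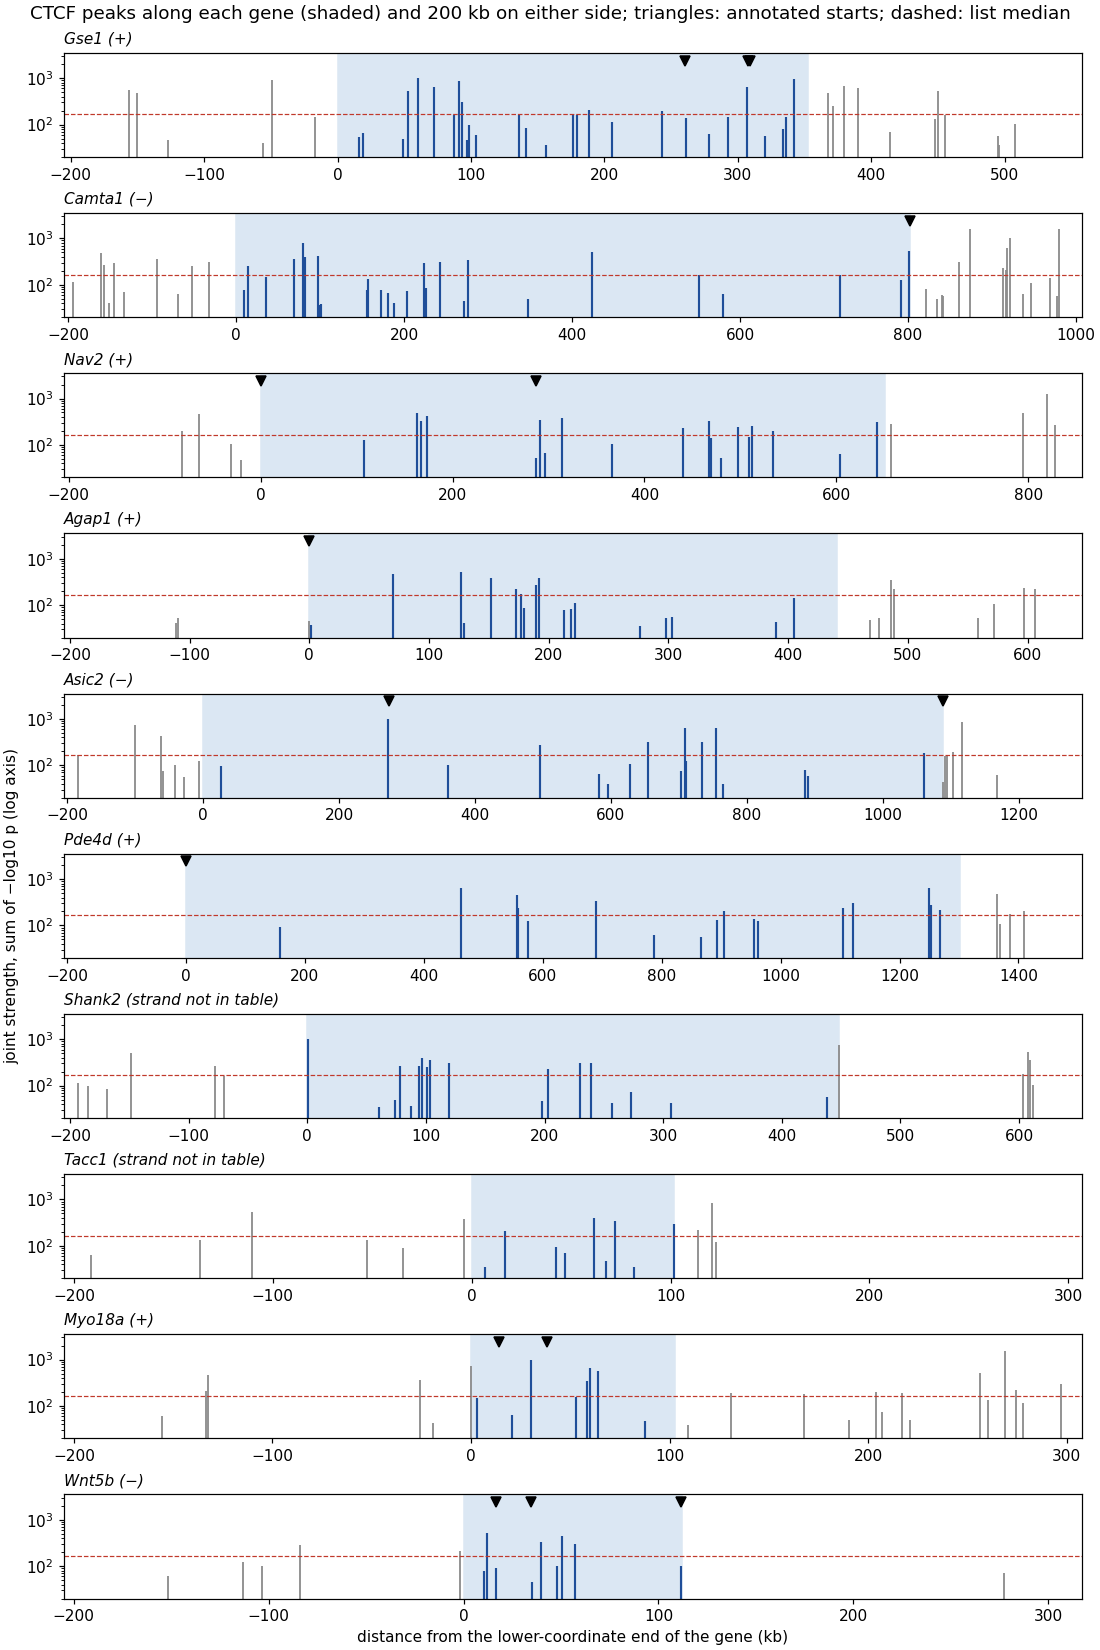
CTCF peaks along each of the 10 genes (shaded) and 200 kb on either side. The x axis is the distance from the lower-coordinate end in kb and the y axis the joint strength on a log scale; blue lines are summits inside the gene, grey lines summits outside, triangles annotated starts, and the dashed line the list median of 165.5. Peaks crowd in the lower part of Camta1, and a peak-free stretch of 303 kb opens Pde4d after its first peak.

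Pooled over the 10 genes, the surroundings had a density close to that inside. In the 200 kb on either side there were 124 summits, 3.10 per 100 kb, against 3.15 inside. The ratio was 1.02, a description, since the inside counts chose the genes. Per gene, 8 of 10 were denser inside than in their flanks, from 1.31 times in Pde4d to 5.34 times in Wnt5b. Pde4d however fell below its flanks, to 0.871 and 0.768 times, with flanks of 100 and 500 kb. The same share among all long genes was not computed, so nothing is read from the 8 of 10. Camta1 and Asic2 were less dense inside than in their flanks. Camta1 had 10 peaks in the 200 kb below and 15 in the 200 kb above, 6.25 per 100 kb against 3.37 inside. Asic2 had 7 and 6, 3.25 per 100 kb against 1.56. The pooled ratio near 1 therefore mixes genes on either side of it, and it weights the longest genes most.

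Wnt5b and Tacc1 stood out most from their surroundings. Wnt5b had 5 peaks in the 200 kb below and 1 in the 200 kb above. The peak above lay inside Erc1, 165 kb away, at a strength of 73.0. Tacc1 had 6 below and 3 above. Myo18a lay in a region dense on its upper side, with 14 peaks in 200 kb, and Gse1 had 6 below and 11 above. Pde4d had 0 below, where no protein-coding gene lies, and 4 above. The flanks of Agap1 (3 and 8), Nav2 (4 and 4) and Shank2 (6 and 5) were thinner than the genes.

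Several of the strongest flank peaks sat at ends of neighbouring genes. The peak near the end of Nol9, 177 kb above Camta1, had a strength of 1607, that at Dhrs13, 166 kb above Myo18a, 1528, and that at Prmt3, 168 kb above Nav2, 1275. All 3 exceeded every peak of the gene they flank. Of the 124 flank peaks, 24 (19.4%) lay within 1 kb of a protein-coding gene end, against 18.0% of the list. Of the 174 peaks of the genes, 10 (5.75%) did. Away from any end of any gene and from their own gene's annotated starts lay 146 (83.9%). No such share was computed over the list, so nothing is read from the 146. Shank2 and Tacc1 had no start windows, so none of their peaks could count as near a start. The flank peaks and the 174 share the peaks just outside an end of Agap1, Asic2, Shank2 and Myo18a. Each of these lay within 1 kb of that gene's own end and is counted in both shares, so the flank share is not one of neighbouring genes alone. Long genes also have few ends per kb, so nothing is read from this difference. Wnt5b was the exception, with 3 of its 9 peaks within 1 kb of an end of another protein-coding gene: 2 at Fbxl14, which lies inside the bounds of Wnt5b, and 1 at Gm52875.

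**Figure D2:**
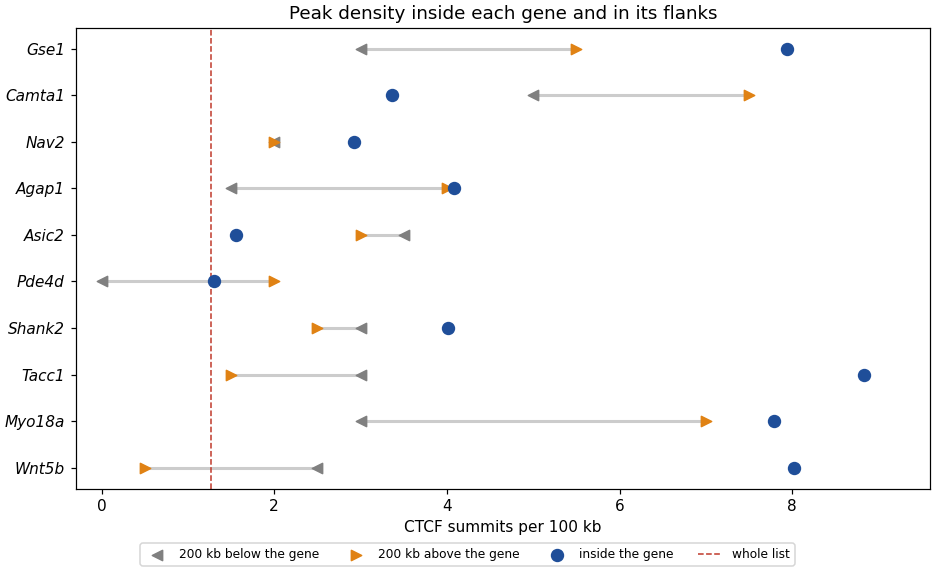
CTCF summits per 100 kb (x axis) inside each of the 10 genes (blue circles), in the 200 kb below (grey triangles) and in the 200 kb above (orange triangles); the dashed line is the whole list at 1.27. Camta1 and Asic2 lie left of both of their flanks, and Tacc1, Wnt5b, Gse1 and Myo18a lie farthest right.

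In Gse1 peaks lay along most of the gene. The longest stretch without a summit was 37.3 kb of a gene of 352883 bp, and neighbours were a median of 12.4 kb apart. The gene runs on the plus strand, and its 3 start windows lay 260, 307 and 309 kb from the lower end, with none at that end itself. A run of 6 of its peaks, in which no spacing exceeded 10 kb, lay between 87.3 and 104 kb from the lower end, with strengths from 47.0 to 885. Its strongest peak (chr8:120287422-120289922) lay 60.1 kb from that end at a joint strength of 999, the sum of 322 and 677 in the replicate columns. A peak of 956 lay 342 kb along the gene, near its far end. Of its 28 peaks, 10 were above the list median and 9 were below its lower quartile of 80.8.

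Myo18a held the strongest set. Its median strength of 347 stood at the 78.8 percentile of the list, and 5 of its 9 peaks were above the list median. The strongest (chr11:77792705-77793687) had 387 and 610 in the replicate columns. A peak at its lower end had 411 and 330, and a run of 4 peaks from 53.0 to 64.2 kb had strengths of 159 to 655. Tacc1 and Wnt5b were mostly weaker, with medians of 93.2 and 100. The strongest peak of Tacc1 reached 394 (73.3 and 321), and that of Wnt5b 523 (110 and 413). In Wnt5b 8 of the 9 peaks lay within 57.4 kb of the lower end, the end away from its outer start, and a stretch of 54.0 kb without a summit separated them from the peak at that start.

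Camta1 was lopsided. Divided into 3 stretches of equal length, the gene had 18 peaks in the lower, 4 in the middle and 5 in the upper stretch. The gene runs on the minus strand, so the crowded stretch is the one farthest from its annotated start. Its strongest peak (chr4:151138999-151140710, 369 and 418) lay there, 80.1 kb from the lower end. The longest empty stretch, 140 kb, lay between 580 and 719 kb, in the part nearer the start. A peak of 535 (276 and 259) stood 656 bp inside the start itself.

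Agap1 and Shank2 each had a compact interior group. In Agap1, 10 of 19 peaks lay in the middle of the 3 stretches, 5 of them in a run from 173 to 192 kb with strengths of 87.2 to 390. The 2 peaks at its start were weak, at 46.3 and 37.2, and its strongest peak, 127 kb inside, reached 522 (266 and 255). The longest run of any of the 10 genes was in Shank2, with 7 peaks between 74.3 and 103 kb. Shank2 also carried strong peaks at both ends. At the lower end the strength was 1017 (574 and 443), the highest of all 174 peaks, and at the upper end 755 (168 and 588), beside the non-coding Gm34561. Between 307 and 438 kb it had no summit. Nav2 had 10 of its 19 peaks in the upper stretch, away from its outer start, and the 107 kb behind that start were empty. Its second annotated start, 287 kb inside, had a weak peak of 51.6 (30.8 and 20.8), while the strongest of the gene, 495 (99.9 and 395), lay 162 kb inside.

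Asic2 and Pde4d, the longest of the 10, had long empty stretches between groups. In Asic2 neighbours were a median of 27.9 kb apart, close to the 26.8 kb of the whole list, and 246 kb without a summit separated its lowest peak from the peak at its internal start. In Pde4d the median was 39.9 kb, wider than in the list, and the longest empty stretch 303 kb. Pde4d had 1 peak in the first, 7 in the middle and 9 in the last of the 3 stretches counted from its start, and 0 within 1 kb of that start, the nearest being 159 kb inside. Its strongest peak (chr13:109902197-109904295, strength 649 with 302 and 348) lay 1249 kb along the gene, within 1 kb of the microRNA gene Mir1904.

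Over the 164 spacings between neighbours of the same gene, the median was 14.6 kb, and 67 (40.9%) were at most 10 kb, against 26.2% of spacings in the list. Close spacing follows from a choice for many or dense peaks, so it is given as a description. The median spacing was below that of the list in 8 of the 10 genes, all but Asic2 and Pde4d. The same share among all long genes was not computed, so nothing is read from the 8 of 10. The closest neighbours were 1.17 kb apart, in Myo18a.

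The stated choice of the genes was by number or density of peaks and did not name strength. The peaks come from the same list, however, and its IDR cut sets which weak peaks count towards the number. Strength too is therefore described without a test. The 174 peaks were not stronger than the list. Their strengths ran from 34.5 to 1017 with a median of 145, the 45.2 percentile, against 165.5 in the list and 173 in the flanks. The flank values here include the peaks just outside an end of Agap1, Asic2, Shank2 and Myo18a, which are also among the 174. Of the 174, 80 (46.0%) were above the list median, where 50.0% of the list lie, and 58 (33.3%) were below its lower quartile, where 25.0% lie. The share above the upper quartile was 27.0%. At the cap of the IDR stood 49 peaks (28.2%), against 24.8% of the list. By gene, the medians were above that of the list in Myo18a (347), Shank2 (254), Nav2 (231) and Pde4d (213), and lowest in Agap1 (87.2) and Tacc1 (93.2). In Agap1 the flank peaks were weaker still, with a median of 52.9, while in Camta1 (134) the flank median was 209. Of the 10 genes, 4 had a higher median percentile than their own flanks. The same share among all long genes was not computed, so this count is a description only.

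The replicate columns differed in level, as in the whole list. The second column was higher at 156 of the 174 peaks (89.7%), against 90.7% of the list, with a median log2 difference of 1.62 against 1.91. It was higher at every peak of Asic2, Pde4d and Tacc1. The 10 peaks within 1 kb of a start of their own gene differed from this pattern. Their median was 52.7 in the first column and 42.5 in the second, a median log2 difference of −0.04, and the second column was higher at 5 and the first at 5. The other 164 peaks had medians of 30.7 and 115 and a log2 difference of 1.64. The list as a whole had the same split, with a median log2 difference of 0.30 at the 15.7% of peaks within 1 kb of a start and 2.08 elsewhere. Among the 164 are peaks at gene ends that have no start window: the lower end of Myo18a (411 and 330), both ends of Shank2 and the upper end of Tacc1. What sets the columns apart at starts was not tested, and depth per library is unknown. Of the 10 peaks near starts, the 3 strongest had 486 and 490 (the internal start of Asic2), 208 and 435 (Gse1) and 276 and 259 (Camta1).

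**Figure D3:**
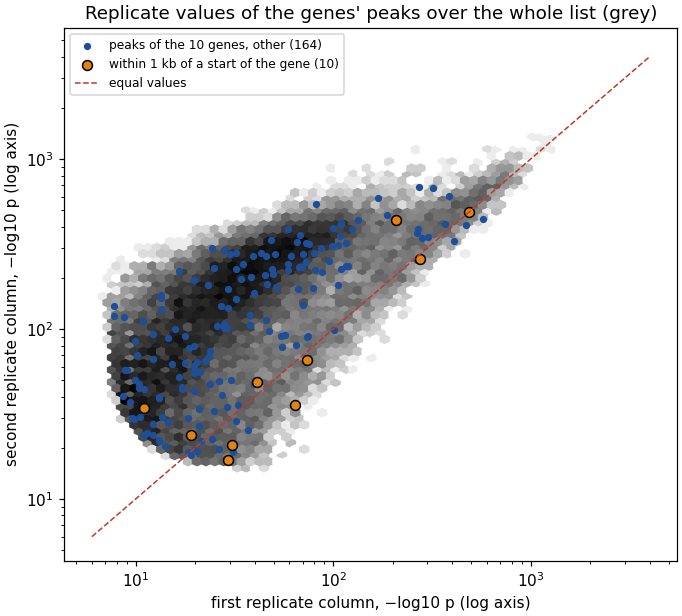
The −log10 p of the first (x axis) against the second (y axis) replicate column, both on log scales, for the whole list (grey, darker where peaks are more frequent), the 10 peaks within 1 kb of a start of their gene (orange) and the other 164 peaks of the 10 genes (blue). The dashed line marks equal values; most blue points lie above it, and the orange points lie on both sides of it, 5 above and 5 below.

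Paralogs of the members, 17 genes not picked on peaks, gave a comparison of related genes; Gse1 had none on this list. They held from 0 to 9 peaks, with a median of 4. Pde4c was the 1 gene with none, which lies between flanks of 12 and 17 peaks. The 5 paralogs of 100 kb or more had 1.16 to 3.23 peaks per 100 kb, counted with 1 kb beyond each end. Tacc2 had 3.23 where Tacc1 had 8.66, and Myo18b 1.91 where Myo18a had 8.59. Nav1 (3.13) stood above Nav2 (2.91) and Nav3 (1.16) below it, and Pde4b (1.34) was level with Pde4d (1.30). The longest distance between neighbouring peaks was 252 kb in Pde4b and 23.7 kb in Pde4a, and 371 kb in Nav3 was the widest among the paralogs. Of the 12 shorter paralogs 11 had over 4 peaks per 100 kb, among them Agap2 (20.1), Asic1 (15.2), Camta2 (14.5), Agap3 (11.6), Shank3 (7.22) and Shank1 (5.64). These are genes of 6 peaks or fewer, in which a single peak moves the density by a large step. Flanks of the shorter paralogs ranged from 0 (Wnt5a) to 7.25 (Pde4c) summits per 100 kb, with 6.25 at Agap2 and 1.5 at Shank3. The share of all shorter genes above 4 per 100 kb was not computed, so nothing is read from the 11 of 12. Per length, then, short relatives such as Asic1 and Agap2 were denser than Asic2 and Agap1. Among relatives of 100 kb or more none was as dense as Tacc1, Myo18a, Wnt5b or Gse1. These members were picked for their number or density of peaks and the relatives were not, so nothing is read from that difference. Gse1 had no paralog to compare, and the only paralog of Wnt5b, Wnt5a, was 22906 bp long.

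**Figure D4:**
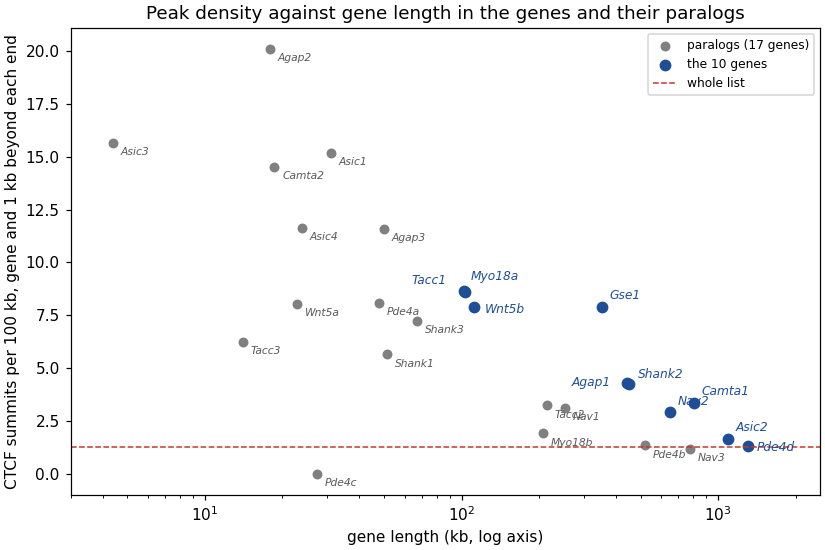
CTCF summits per 100 kb of gene and 1 kb beyond each end (y axis) against gene length in kb (x axis, log scale) for the 10 genes (blue) and their 17 paralogs (grey); the dashed line is the whole list at 1.27. Density is high among most short paralogs, where 1 or a few peaks suffice, while Pde4c had no peak. Gse1, picked on its peaks, lies above the paralogs of 100 kb or more, which were not picked on theirs.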

How the data were processed

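The −log10 p of the matched peak in either replicate, the joint value and the −log10 of the IDR are deposited values of the authors, from a table with 20 columns laid out as the IDR program writes it. The deposited score, a rescaled IDR, was not used. The submitters' processing notes name MACS2, BWA, SAMtools, Trimmomatic and FastQC, with GRCm38.p6 and mm10 as builds; no source used here gives their versions and roles or how the inputs entered. Which labelled replicate a column belongs to is not stated.

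Summits were set at the peak start plus the deposited offset. Genes whose positions run on scaffolds were left out. A run of peaks is a set of neighbours with spacings of at most 10 kb, and percentiles are ranks in the whole list. The genes, the paralog list and the comparisons were chosen with earlier results of these data known. The letters searched in the start windows (CCCTC and AGNNGGC) were chosen after the data were seen; AGNNGGC replaced, after its result was known, a longer form of the CTCF core, which is not reported. Named genes were the 10 members, 17 paralogs, genes nearest the strongest flank peaks, genes with ends at a member's peaks and genes at the edge of the choice; Mir1904, Erc1 and Gm34561 fall under these. The code was tested on simulated peaks. Versions were matplotlib 3.10.9, scipy 1.17.1, pandas 2.3.3, numpy 2.4.6 and Python 3.11.15.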

Additional observations from a re-analysis of the deposited data

How the results depend on the processing

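Of 24 alternatives to the 5 pooled values, 21 left the value within 1.5 times (for the count) or within its 95% interval. These intervals were taken over peaks or spacings pooled from the 10 chosen genes, as if independent. They serve only as a yardstick for a move and do not measure spread between genes or replicates. The other alternatives all came from keeping only peaks above the median joint strength, which removes peaks by construction: the count over the 10 genes fell from 174 to 80, the median spacing widened from 14.6 to 25.0 kb (53.2 kb in the list so filtered) and the median log2 of the second over the first column moved from 1.62 to 1.81 (2.12 in the list). The density inside over that in the flanks ranged from 0.903 with these peaks to 1.04 with flanks of 500 kb, on either side of 1, and was 0.946 without Gse1. Per gene, Pde4d passed to 0.871 with flanks of 100 kb and 0.768 with 500 kb, so its excess over the flanks cannot be given a direction, while Camta1 and Asic2 stayed below 1 and the other 7 genes above 1 with flanks of 100, 200 and 500 kb. The median strength percentile was 50.8 by the first and 44.4 by the second replicate column. No paired analysis was possible because the deposited list joins the replicates and holds no input values.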
